A study of Danio rerio with 2 samples.

Results

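Cytosolic ribosomal protein genes were examined in whole zebrafish larvae after swim training. The members were picked by a rule on gene symbols, which was set with earlier results of these data known. Probes were taken whose gene is rpl or rps followed by a digit, or rplp0, rplp1, rplp2 or rpsa. The rps6k kinases were left out. A probe is a short DNA sequence printed on the array that captures 1 transcript. The rule found 171 of the 43603 probes, and these belonged to 80 genes. Of these genes 24 had 1 probe and 56 had from 2 to 5. Another 4 symbols meet the rule, rpl17, rpl36a and rps19bp1 among them, but no probe was paired with these. The scanner files carry no gene symbols, so each symbol came from matching a probe's accession to a RefSeq gene table.

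The study compared wild-type larvae (Wageningen wild type crossed with Tubingen wild type) that swam in sessions of 3 hours between 5 and 10 days after fertilisation with untrained larvae of the same background, all sampled at 10 days. RNA of 10 whole larvae was pooled per condition, 400 ng a fish, and 100 ng of each pool was labelled. Both pools were hybridised together on 2 arrays, with the trained pool in the red dye Cy5 on array 1 and in the green dye Cy3 on array 2. The arrays are a technical dye swap of 1 pool per condition, so no p-value, standard error or spread between fish can be given, and every value describes these 2 pools. In pooled whole larvae a change in the number of cells of a type and a change in RNA per cell cannot be told apart.

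The ribosome is the machine that translates mRNA into protein. Its small subunit reads the mRNA and its large subunit joins the amino acids, and each is built from ribosomal RNA and a set of small, mostly basic proteins. In vertebrates the mRNAs of these proteins begin with a run of pyrimidines, by which their translation follows nutrient signalling through the mTOR kinase. They are among the most abundant mRNAs of growing tissue, and their proteins are needed in fixed proportions in each ribosome.

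Across the arrays, between 71.5% and 84.3% of probes were well above background in a channel, and 30886 probes were so in both channels of both arrays; these are called measured. No member spot was saturated. Of 27 marker genes of larval tissues that had a probe, 25 were measured, and all 11 tissues or sources listed had a measured marker. One of those sources was oocyte or maternal RNA, with zp3a.1 measured. Of all 12900 genes with a symbol, 11121 were measured, so a measured marker does not identify a tissue. The titles and channel labels exchange the dyes between the arrays, while the series' design text names the same orientation for both. The authors' deposited value table turns the sign of every spot of array 2 against its scanner file. Every direction given here follows the titles, the channel labels and that turned sign. Precision is limited by having 1 pool per condition, hybridised on 2 arrays.

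All 171 ribosomal protein probes were measured. Their raw spot signals had a median of 140208 for the trained pool and 85967 for the control pool on array 1, over local backgrounds of 86 and 26.5. On array 2 the medians were 99559 for the trained pool and 104350 for the control pool, over 26 and 86. The pool in Cy5 thus had the brighter median on both arrays, before any correction or normalisation. Over all probes the raw medians had the same order, at 179 in Cy5 and 138 in Cy3 on array 1, over backgrounds of 82.5 and 24.5. On array 2 they were 156 in Cy5 and 137 in Cy3, over 82 and 24. The highest member signal was 358673, against a saturation value of 778455 in that channel. Spot brightness, the mean log2 intensity over both channels and arrays, ran from 6.48 to 17.71 in the members with a median of 16.71, and 163 of 171 lay in the brightest 10% of measured probes. Of the 337 measured probes with a brightness of at least 16, 129 were ribosomal protein probes, or 38.3%. Brightness also depends on the probe, so it does not rank the transcripts.

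By the mean of both arrays, no large difference between the pools was seen in these transcripts. None of the 171 probes was at least 1.5-fold higher in the trained pool on both arrays, where 0.476% of all measured probes were, and none was at least 1.5-fold lower, where 0.0421% were. With shares this small, 0 of 171 does not set the members apart. Since both arrays had to pass, a difference near 1.5-fold can miss this rule. A larger one can miss it too at a probe that leans towards 1 dye, as many members did. The mean log2 ratio of trained over control, averaged over both arrays, had a median of 0.07, or 1.05-fold, and ran from -0.20 to 0.42. Over all measured probes the median was -0.01. The mean ratio was above 0 for 128 of the 171 probes, against 14670 of the 30886 measured probes. The members' median ran from 0.03 under the deposited ratios to 0.19 under median centring. Its direction was thus kept on the mean, but it was not shared by the arrays, which gave medians of 0.32 on array 1 and -0.13 on array 2.

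The ratios of most members turned with the dye. The trained over control ratio had opposite signs on the arrays for 123 of 171 probes, or 71.9%, against 53.9% of all measured probes. Another 39 probes were higher in the trained pool on both arrays, and their share of 22.8% was near the 22.9% of all measured probes. Lower on both arrays were 9 probes, or 5.26%, against 23.2% of all. The 9 probes belonged to rpl10, rpl5a, rpl7l1, rplp0, rps16, rps25, rps4x, rps6 and rpsa, where rps16 and rps25 are named because of this count. Pearson's r between the arrays was -0.66 over the 171 probes, and Spearman's rho was -0.64. Over all measured probes r was -0.04. At a brightness of at least 13, a limit set after the values were seen, it was -0.66 in 161 members and -0.28 in 1270 other probes. The members' points share both arrays and, for most, a high brightness, and these values describe the probes only.

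**Figure D1:**
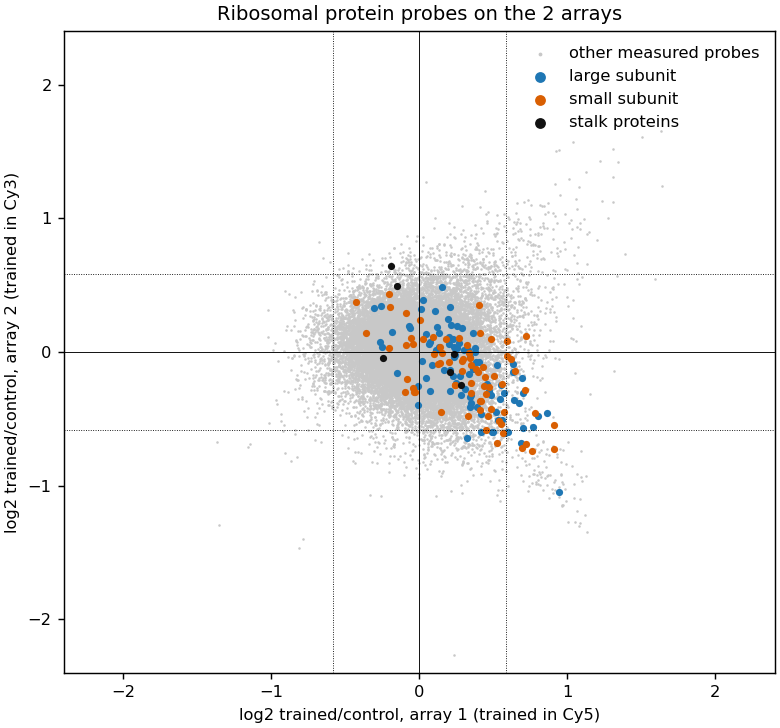
Log2 ratio of trained over control on array 1 (x axis) and on array 2 (y axis) for 171 ribosomal protein probes, coloured by subunit, over all other measured probes in grey. Dotted lines mark 1.5-fold, and points at the lower right, where most members lie, are higher for whichever pool carried Cy5.

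The dye component of a probe is the mean over both arrays of log2 Cy5 over Cy3 before any sign is turned, in which a pool difference cancels when the dyes are exchanged. Its median was 0.20 in the members, or 1.15-fold towards Cy5, and -0.01 over all measured probes. It ran from -0.42 to 1.00. Towards Cy5 on both arrays were 61.4% of the members, against 26.3% of all measured probes. Towards Cy3 on both arrays were 18 members, against 27.6% of all. At least 1.5-fold towards Cy5 on both arrays were 7 probes of 6 genes, or 4.09%, against 0.366% of all, and 0 were so towards Cy3, against 0.00971%. The size of this component depended on the normalisation, with a median of 0.045 under the deposited ratios and 0.42 under median centring. Over all measured probes the median was then -0.01 and -0.09. The number of member probes past 1.5-fold was 1 under the deposited ratios and 25 under median centring. The matching shares of all measured probes are not given.

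From a brightness of 15 upwards the median dye component was higher in each brighter class, in ribosomal and in other probes. The classes were set after the values had been seen. Between a brightness of 15 and 16 the median dye component was 0.00 in 23 members and 0.00 in 214 other probes. From 16 the classes were 0.5 wide, and in the lowest of these it was 0.13 in 22 members and 0.09 in 81 others. In the next class it was 0.24 in 71 members and 0.18 in 82 others. From 17 it was 0.41 in 29 members and 0.34 in 34 others, and in the open class at the top it was 0.60 in 7 members and 0.51 in 11 others. The members' medians from 16 upwards thus lay above those of other probes as bright, a difference that was not tested. Under the deposited ratios the order was turned in the top class, with 0.35 in members and 0.37 in others. From 13 to 15 the median dye component was 0.14 in 9 members and -0.07 in 848 others. There too the order was turned under the deposited ratios, with -0.12 in members and -0.06 in others. Over the 161 members with a brightness of at least 13, brightness and dye component had a Pearson r of 0.53, as a description of probes that share the arrays. That limit was chosen after the values were seen, and r was 0.33 over all 171 members and 0.28 over 1270 other probes of at least 13. Under the deposited ratios r was 0.46 in those 161 members but 0.03 in those 1270 other probes.

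**Figure D2:**
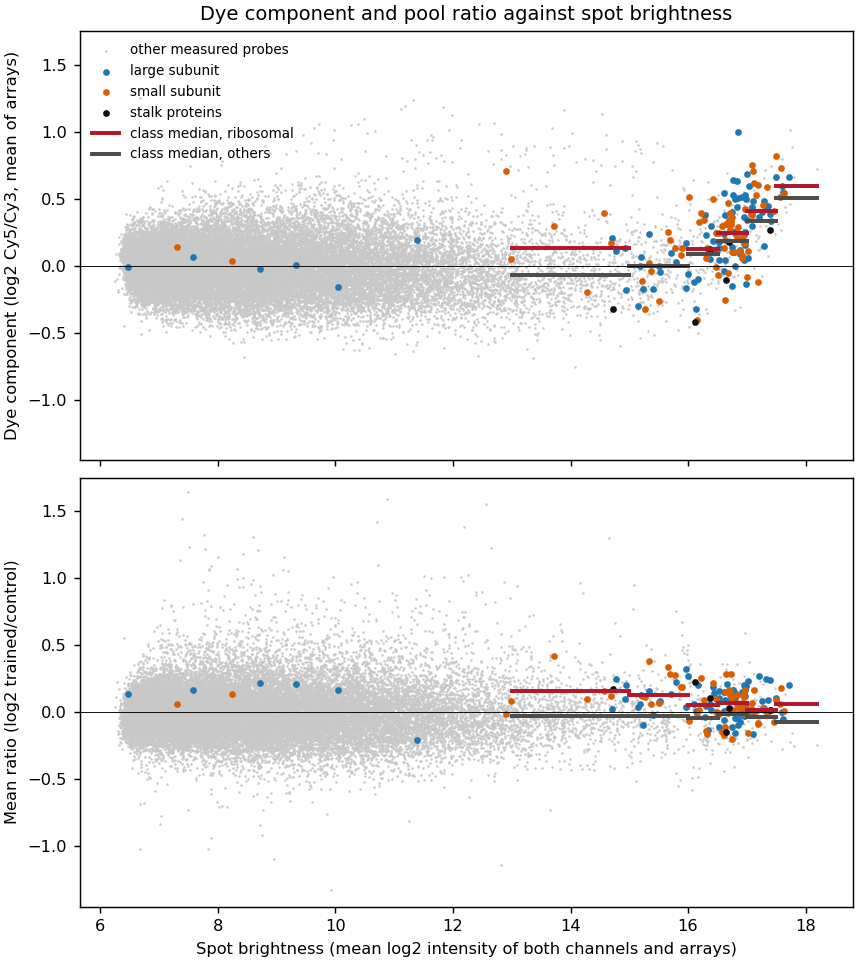
Dye component (upper panel, log2 Cy5 over Cy3) and mean ratio (lower panel, log2 trained over control) of each measured probe against its spot brightness. Ribosomal protein probes are coloured by subunit, other probes are grey, and bars give the class medians, which climb together in the upper panel from 0.00 between 15 and 16 to 0.60 and 0.51 in the brightest class.

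The pool ratio of the members lay a little above that of other probes in each of these classes. The median mean log2 ratio was 0.16 in members against -0.02 in others from 13 to 15, and 0.13 against -0.03 from 15 to 16. In the 2 classes between 16 and 17 it was 0.05 against -0.04 and then 0.07 against -0.01. In the 2 brightest classes it was 0.02 against -0.04 and 0.06 against -0.07. In the class from 15 to 16 the median dye component was near 0. Of its 23 members, 16 were higher in the trained pool on both arrays, or 69.6%, and 0 were lower. Among the 214 other probes 17.3% were higher and 23.8% lower. The dye component had an SD of 0.17 in these members and 0.28 in those others. A smaller dye component leaves more ratios with the same sign on both arrays, and the class was set after the values had been seen. The 16 probes belonged to 13 genes, and the class median was 1.09-fold. Above a brightness of 16, 108 of 129 members were opposite on the arrays, or 83.7%, against 63.5% of 208 other probes.

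The subunits, assigned by gene symbol, had similar medians. By its symbol rpl7l1, a relative of rpl7 described below, was counted with the large subunit. Its mean ratio of -0.20 was the lowest of all members. The 92 probes of 42 large subunit genes had a median mean ratio of 0.09 and a median dye component of 0.19. The 73 probes of 35 small subunit genes had 0.07 and 0.24. The large subunit had 27 probes with a higher ratio on both arrays (29.3%), 3 with a lower one (3.26%) and 62 with opposite signs (67.4%). For the small subunit these counts were 12 (16.4%), 5 (6.85%) and 56 (76.7%). Over all measured probes the shares were 22.9%, 23.2% and 53.9%. The difference between the subunits was not tested.

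The stalk of the large subunit, which recruits the translation factors that hydrolyse GTP, is made of rplp0 as the base and copies of rplp1 and rplp2. The level of rplp1, as normalised log2 intensity of a channel, was 16.17 and 16.31 in the trained pool on arrays 1 and 2 and 16.36 and 15.67 in the control pool. The values of the pools overlapped, and the pool in Cy3 was higher on both arrays. Its dye component of -0.42 was the lowest of all members, and its mean ratio was 0.23. For rplp2 the levels were 16.86 and 16.55 in the trained pool and 16.65 and 16.69 in the control pool, with a mean ratio of 0.03. The 4 probes of rplp0, which is often used as a reference gene, had mean ratios from -0.15 to 0.17 and dye components from -0.32 to 0.27. Across the stalk's 6 probes, 5 were opposite on the arrays, beside 71.9% of all members and 53.9% of all measured probes.

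Genes are represented below by their brightest probe unless stated. By that probe 11 of the 80 genes were higher in the trained pool on both arrays, 5 were lower and 64 were opposite. Over the 11121 measured genes with a symbol, taken the same way, 24.3% were higher, 22.1% lower and 53.6% opposite. The highest was rps27.2, of the small subunit. Its levels were 15.68 and 15.36 in the trained pool and 15.28 and 15.01 in the control pool, so both trained values lay above both control values. The ratios were 0.41 and 0.36, with a mean of 0.38 or 1.30-fold. Its second probe gave 0.00 and 0.24, with a mean of 0.12. The first of these was the single member probe to pass when the threshold was lowered to 1.2-fold, and the deposited mean ratio was 0.29 for it and 0.16 for the second probe.

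Values of the pools not overlapping, with the trained pool higher, were found for 24 member probes, or 14%, against 16.1% of all measured probes, and with the control pool higher for 7, or 4.09%, against 16.6%. The large subunit gene rpl4 had levels of 16.08 and 16.20 in the trained pool and 15.92 and 15.71 in the control pool. These did not overlap, and the mean ratio was 0.32 or 1.25-fold, but its other probe stood at -0.10. The small subunit gene rps28 had 16.08 and 15.56 against 15.59 and 15.47, which overlapped, with a mean ratio of 0.29 and of -0.01 at its other probe. Under the deposited ratios rpl4 stood at 0.12 and rps28 at -0.00, where its direction was lost. For rpl10a, which lies at the exit of the ribosome's tRNA path, the mean ratio was 0.23, with ratios of 0.29 and 0.18, and its 2 other probes were at 0.01 and 0.04.

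Among the genes lower in the trained pool on both arrays, rpl7l1 stood at -0.20. It is named as a relative of rpl7, and in human cells its protein acts in ribosome assembly. Its levels were 11.32 and 11.25 in the trained pool and 11.33 and 11.65 in the control pool, and the ratios were -0.01 and -0.40. The next was rps6, whose protein is the classical substrate of the S6 kinases. Its levels were 16.29 and 16.20 in the trained pool and 16.32 and 16.50 in the control pool, with a mean ratio of -0.17. Those values did not overlap, but the other 3 probes of rps6 stood at 0.09, 0.12 and 0.42, the widest range over the probes of any member gene. For rpl10, a late-joining protein near the catalytic centre of the large subunit, the ratios were -0.15 and -0.16, while 2 of its 3 other probes had mean ratios above 0. The small subunit gene rps4x stood at -0.15, with other probes at 0.03 and 0.16, and rpl5a at -0.13, with another probe at 0.25. Under the deposited ratios rps6 and rpl5a turned, both standing at 0.03, and rpl10 stood at -0.02.

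**Figure D3:**
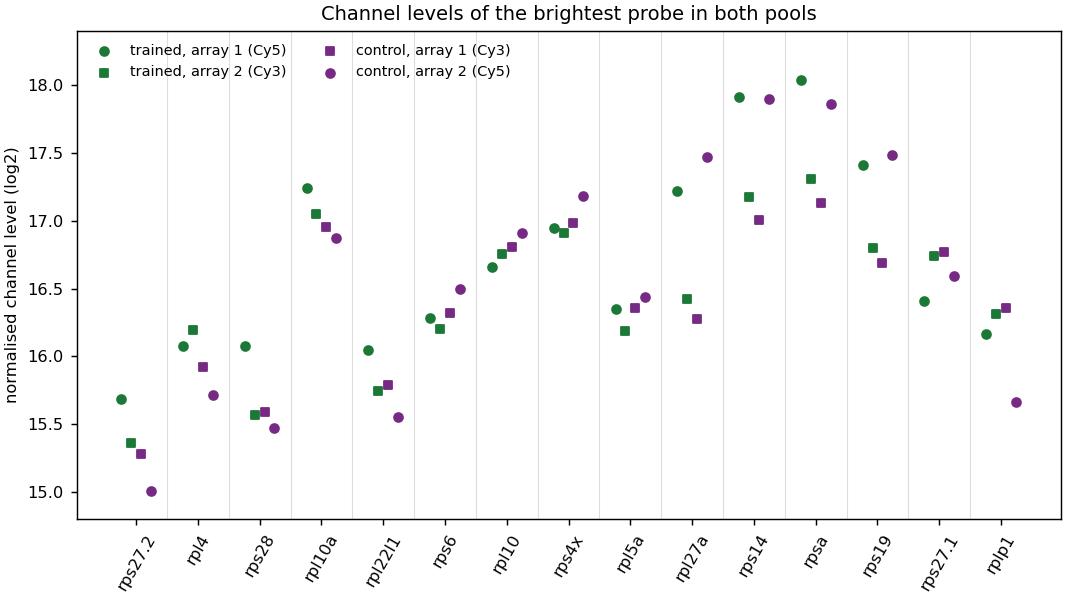
Normalised channel level (log2) of the brightest probe of 15 ribosomal protein genes in the trained pool (green) and the control pool (purple), with circles for Cy5 and squares for Cy3. For rps27.2 both trained values (15.68 and 15.36) lie above both control values (15.28 and 15.01), whereas for rpl27a, rps14, rpsa and rps19 the circles lie above the squares in both pools.

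At the genes with the highest dye components the brighter pool changed with the dye. For rpl27a the levels were 17.22 and 16.42 in the trained pool and 16.27 and 17.47 in the control pool. The Cy5 value was the higher on each array, with ratios of 0.94 and -1.05, a dye component of 1.00 and a mean ratio of -0.05. The second probe of rpl27a had a dye component of 0.35. For rps14, lost in a human deletion syndrome with anaemia, the levels were 17.92 and 17.18 in the trained pool and 17.01 and 17.90 in the control pool, with a dye component of 0.82. Its 3 probes ranged from 0.31 to 0.82. For rpsa, which is also known as a laminin receptor, the dye component was 0.73, and its other 3 probes had -0.04, 0.11 and 0.13.

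The 2 brightest probes of rps19, a gene mutated in human Diamond-Blackfan anaemia, had dye components of 0.70 and 0.75, while the other probe, also bright at 16.52, had -0.07. The mean ratios of its 3 probes lay between -0.02 and 0.02. Dye components of 0.69 and 0.66 were found for rpl36 and rpl26. The lowest values after rplp1 were those of rps27.1 at -0.25, rpl4 at -0.16, whose ratios kept their sign, and rpl28 at -0.12, so a shift towards Cy5 was not shared by all members.

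Other genes picked for a known role or position had small mean ratios too. In mammals the proteins of rpl11 and rpl5 bind Mdm2 and so link ribosome assembly to p53. The rpl11 transcript had levels of 17.71 and 17.31 in the trained pool and 17.07 and 17.46 in the control pool, which overlapped, with a mean ratio of 0.24. For rps27a, which encodes ubiquitin fused to a ribosomal protein, the ratios were 0.54 and -0.52, with a mean of 0.01. For rpl38, needed in mouse for translation of Hox mRNAs, they were 0.56 and -0.51, with a mean of 0.02. Mutation of rpl35a also causes Diamond-Blackfan anaemia in humans, and its mean ratio was 0.15. The mean ratio was 0.13 for rps3, near the entry of the mRNA channel, and 0.15 for rpl23a, near the exit of the peptide tunnel. For each of these 6 genes the arrays were opposite in sign.

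Several members come as pairs of related genes, and their probes may share target sequence, which was not tested. For rps27.1 and rps27.2 the mean ratios were -0.11 and 0.38, and the dye components -0.25 and 0.03. Under the deposited ratios rps27.1 turned to 0.02. The related rps27l had 0.09, with 0.14 on array 1 and 0.04 on array 2. For rpl5a and rpl5b the mean ratios were -0.13 and -0.02, and the 6 probes of the pair ranged from -0.13 to 0.25. The mean ratio was 0.13 for rpl22 and 0.22 for rpl22l1, whose ratios of 0.26 and 0.19 were both above 0. It was -0.15 for rps26 and 0.11 for rps26l, both opposite on the arrays. For rps8a and rps8b it was 0.07 and 0.14, with both ratios of rps8b above 0, and for rpl7 it was 0.03. The rps8b probe had a brightness of 8.24, against 16.91 for rps8a, and a deposited mean ratio of 0.01.

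The pool ratios of 2 probes of the same ribosomal gene were little related. Across the 56 member genes with at least 2 probes, the mean ratios of the 2 brightest probes had a Pearson r of -0.10, against 0.67 across 228 other genes whose probes both had a brightness of at least 13. The dye components had an r of 0.29 in members and 0.43 in those other genes. No limit on brightness was set for the members. Across 5981 other genes without that limit, r was 0.61 for the mean ratios and 0.09 for the dye components. These values describe genes, which are not independent replicates. The SD over probes of the mean ratio was 0.12 in members and 0.18 over all measured probes. In 31 of the 56 genes the probes lay on both sides of 0, in 22 all lay above 0 and in 3 all lay below. Such counts are not given for other genes, and ratios this near 0 can differ in sign through small differences. They are thus not read as a trait of ribosomal genes. The median range over the probes of a gene was 0.15 for the mean ratio and 0.28 for the dye component. The spread between repeated spots of 1 probe was 0.08 (SD, log2) for the mean ratio over 20 probes, none of them a member.

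**Figure D4:**
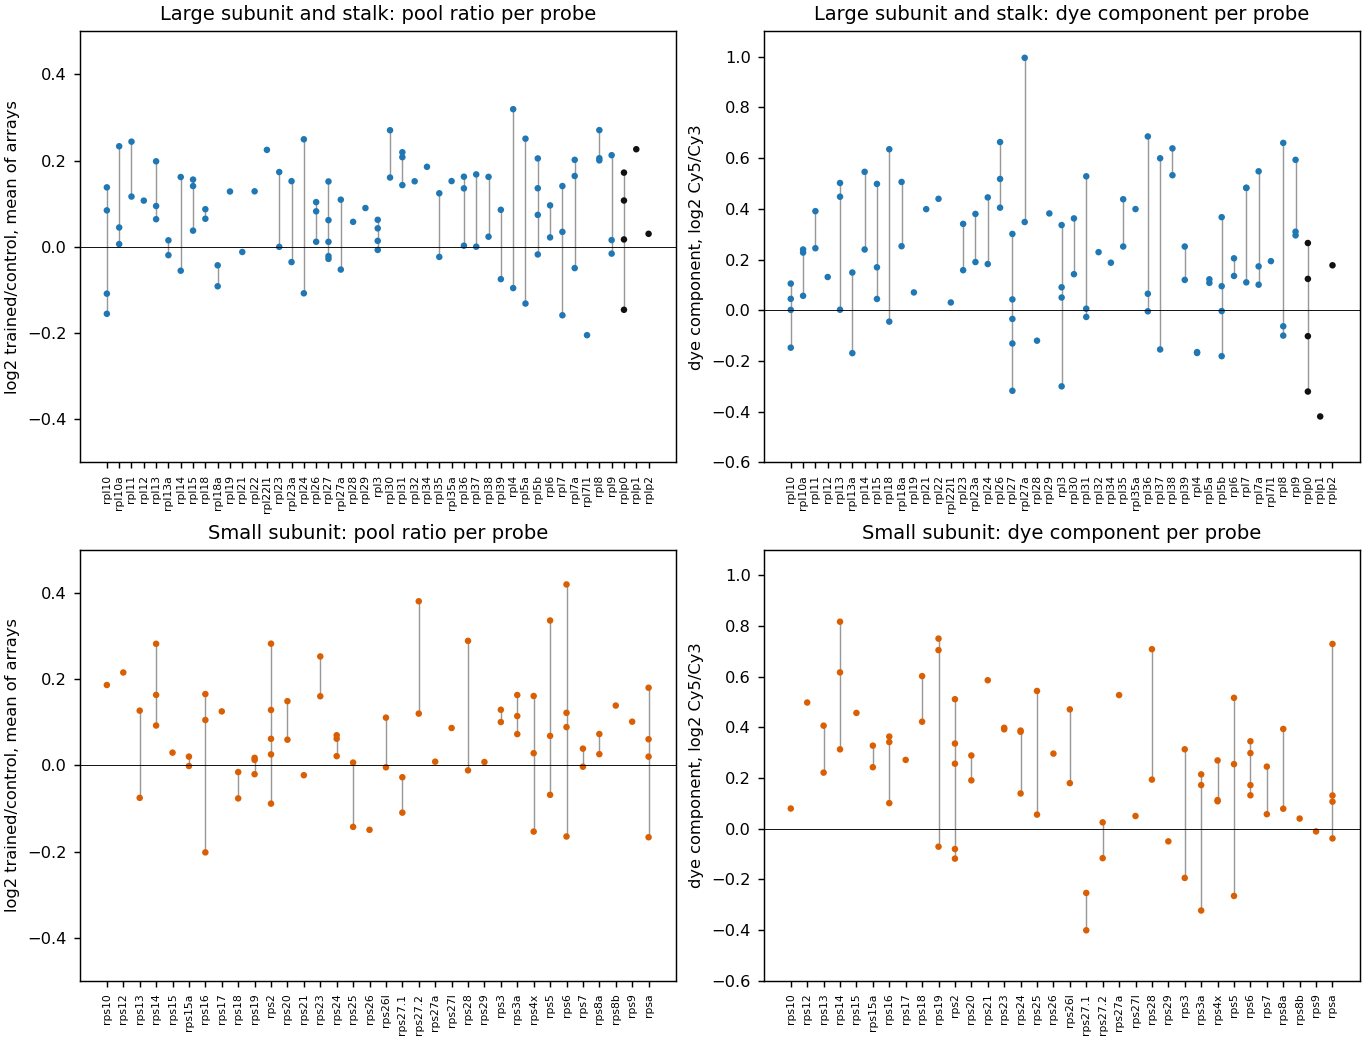
Mean log2 ratio of trained over control (left) and dye component (right) of each probe of the ribosomal protein genes, 1 of which is not drawn, with the probes of a gene joined by a line. In 31 genes with several probes the line on the left crosses 0, and on the right most points lie above 0, up to 1.00 for rpl27a. Other genes are not drawn for comparison.

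A few member probes were dim. A brightness below 13 was found for 10 probes of 8 genes, from which rpl31 and rps24 were chosen as examples after their values were seen. The 2 dim probes of rpl31 had brightness of 9.32 and 8.72 and mean ratios of 0.21 and 0.22, where its bright probe, at 16.77, had 0.14. The 2 dim probes of rpl36 had 7.57 and 6.48, with mean ratios of 0.16 and 0.14, and rps24 had a probe of 7.31 whose accession differs from that of its other probes. Of the 10 probes 7 were higher in the trained pool on both arrays, against 22.9% of all measured probes, and 9 had a dye component within 0.2 of 0, against 74.4%. The exception was the second probe of rps28, with a brightness of 12.91 and a dye component of 0.71. The dimmest of the 10 lay near the floor. This rpl36 probe had raw Cy5 signals of 116 and 104.5, where the members' median local background in Cy5 was 86. With 10 probes, taken by a limit set after the values were seen, these shares describe the probes only.

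Other genes of the translation machinery were set beside the members. Of 37 listed genes that encode elongation factors, initiation factors and related proteins, 31 had probes, and their 88 measured probes had a median mean ratio of 0.03 and a median dye component of -0.01. Both arrays gave a higher ratio for 18 of these probes (20.5%) and a lower one for 15 (17.0%), and 55 had opposite signs (62.5%), beside 22.9%, 23.2% and 53.9% of all measured probes. The elongation factor gene eef1a1l1, whose protein brings tRNAs to the ribosome, had ratios of 0.32 and -0.31 at its brightest probe. Its 10 probes had dye components from -0.38 to 0.31. Those with a brightness of at least 16 were above 0 and the dimmer ones below 0. The probes of eef2b had the same order, but it did not hold for every gene of the list. The brightest probe of rack1, at 17.26, had a dye component of -0.08, and a dimmer one, at 16.36, had 0.11. The initiation factor gene eif4a2 was higher on both arrays at its brightest probe, with a mean of 0.38, while a second probe was opposite, with -0.36 and 0.65, and eif4a1a was lower, with -0.37.

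Genes that build ribosomes had a lower median than the members. Of 66 listed ribosome assembly genes 55 had probes, and of their 128 measured probes 53 were lower in the trained pool on both arrays, or 41.4%, against 23.2% of all measured probes. Another 9 were higher, or 7.03% against 22.9%, and 66 had opposite signs. The median mean ratio was -0.08, with array medians of -0.13 and -0.06. The lowest of the named assembly genes were gnl3, a nucleolar GTPase, at -0.46 and nol6 at -0.46. The highest was nop53 at 0.61, with 0.63 and 0.59 on the arrays, the single probe of the list past 1.5-fold. For RNA polymerase I, which transcribes ribosomal RNA, 21 probes had a median of -0.10, with 8 probes lower on both arrays (38.1%), 2 that were higher and 11 with opposite signs. The 96 probes of mitochondrial ribosomal proteins, which serve translation inside mitochondria, had a median of -0.08 and a median dye component of -0.08. A lower ratio on both arrays was found for 27 of them (28.1%) and a higher one for 9 (9.38%), and 60 had opposite signs. The lowest was mrpl28 at -0.33. The dye components of the 96 probes ran from -0.40 to 0.92. At least 1.5-fold towards Cy5 on both arrays were 2 of these probes (2.08%), against 0.366% of all measured probes, and 0 were so towards Cy3. The difference between these lists and the members was not tested. The lists were also dimmer than the members, whose median brightness was 16.71. It was 13.21 for the other translation machinery, 9.70 for assembly, 9.02 for RNA polymerase I and 10.69 for mitochondrial ribosomal proteins.

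**Figure D5:**
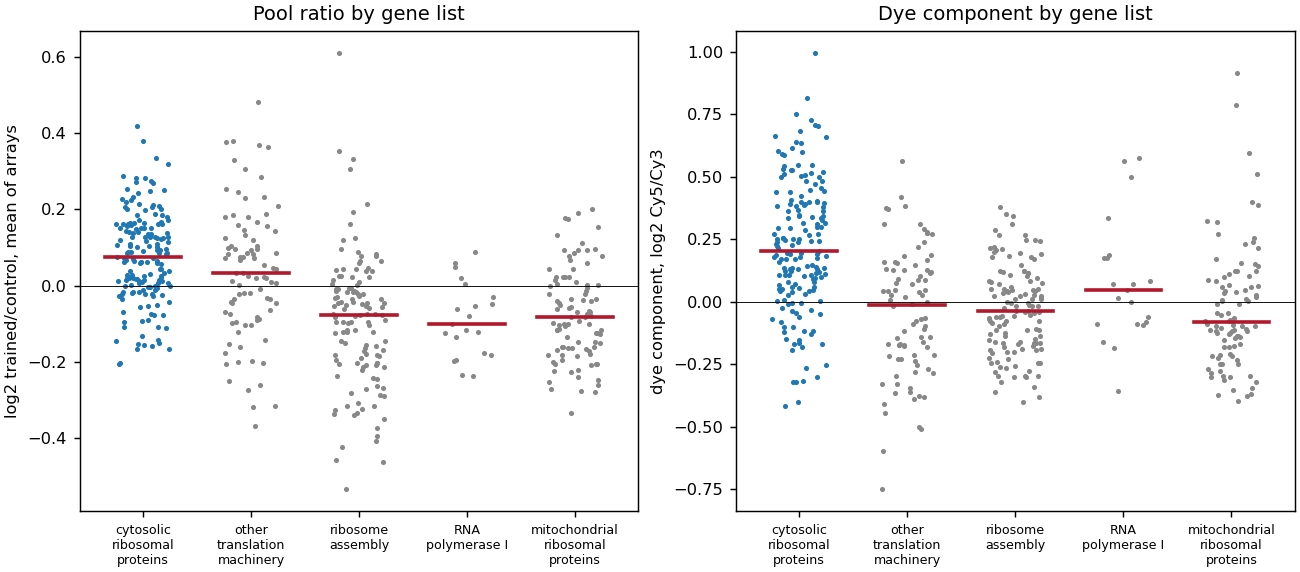
Mean log2 ratio of trained over control (left) and dye component (right) of each measured probe for cytosolic ribosomal proteins (blue) and 4 other gene lists (grey), with red bars at the medians. The left medians are 0.07 for ribosomal proteins, 0.03, -0.08, -0.10 and -0.08 for the others in the order drawn, and the right median is 0.20 for ribosomal proteins. The lists are not matched in brightness.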

How the data were processed

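Per the file headers, the authors deposited 1 scanner file per array, with the median intensity of each spot and its local background in both channels, flags, and the log10 ratio of Cy5 over Cy3. Agilent Feature Extraction 10.5.1.1 was used, per the submitters' processing notes. The series value table that the authors deposited equals these log10 ratios with the sign of array 2 turned.

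Background was removed from the median intensities by normexp (offset 50), and they were normalised by loess (span 0.3) within each array in limma 3.58.1 under R 4.3.3, with control and outlier spots at weight 0. In all, 13 of 43803 spots were left out as outliers. Channel levels were scaled between arrays by Aquantile. Accessions were matched, without versions, to RefSeq genes of assembly GRCz12tu, which named 25171 probes and 11121 measured genes. Since the array design predates that assembly, coordinates are left out, and no table of sequences was used here. Later steps used Python 3.11.15, numpy 2.4.6, pandas 2.3.3 and scipy 1.17.1.

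With 1 pool per condition there was no test. A size rule of 1.5-fold on both arrays stood in its place. Named genes were the 6 highest and 6 lowest genes with the same sign on both arrays (5 were lower), the 6 highest and 4 lowest dye components, related gene pairs (rpl10 and rpl10a and the like are different proteins), the 4 widest probe ranges and 16 genes by role, and up to 5 genes from each other list. The members, lists and rules were chosen with earlier results of these data known. Alternatives covered background correction, normalisation, the deposited ratios, detection, thresholds and single arrays. Of the genes these rules name, 2 are not reported here. An alternative requiring a second gene name column could not be run.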

Additional observations from a re-analysis of the deposited data

How the results depend on the processing

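The median mean ratio of the members was 0.19 under median centring, where the median of all measured probes moved to -0.06 on array 1 and 0.12 on array 2, and it ran from -0.13 to 0.32 on single arrays, turning to lower on array 2 alone. The median dye component was 0.42 under median centring, 0.41 with a loess span of 0.7 and 0.045 under the deposited ratios and the value table. Over genes it was 0.24 with the mean of a gene's probes in place of 0.34. The number of probes at least 1.5-fold towards Cy5 was 13 without background correction, 25 under median centring, 1 under the deposited ratios and the value table, 15 with the members left out of the loess and 33 with a span of 0.7. It was 51 at a threshold of 1.2-fold and 0 at 2-fold. Probes lower on both arrays numbered 1 under median centring and 4 with a span of 0.7, where 21 were higher on both. At 1.2-fold, 1 probe was higher in the trained pool. The cause of these moves was not tested. No matching share of all measured probes is given at these settings and thresholds, so the counts describe the members alone. At 1.5-fold, 0 probes passed in either direction of the pools under each alternative run on both arrays. Of 37 named genes, 8 changed the sign of the mean ratio under the deposited ratios, 4 under median centring, 18 on array 2 alone and 6 on array 1 alone. The detection filters changed nothing, since every member was measured. The 2 loess settings and the limit on brightness were chosen after seeing the data. A dye component cannot be had from 1 array. No paired analysis was possible because each pool is 1 sample, hybridised on both arrays.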
